A study of Mus musculus with 10 samples.

Results

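The genes described here encode the subunits of AP-1 and its relative ATF3, followed across 10 mouse tumors by RNA sequencing. They were chosen by symbol: FOS, FOSB, FOSL1 and FOSL2 of the FOS family, JUN, JUNB and JUND of the JUN family, and ATF3. All 8 were found among the 16895 genes of each deposited file. The tumors grew after chicken DF1 fibroblasts that shed an RCAS retrovirus were placed in the subarachnoid space of newborn mice. Every mouse was Cdkn2a null and carried tv-a, the receptor for the virus, under Nestin control, so the groups differ in neither respect. The virus carried YAP1-MAML2-v2, a fusion of the Hippo-pathway coactivator YAP1 with the Notch coactivator MAML2 (7 tumors), or NLS-2SA-YAP1, a constitutively active YAP1 (3 tumors). The source region was extra cranial for 4 tumors of the fusion (YAP1-MAML2-v2 replicates 1, 3, 4 and 5) and for NLS-2SA-YAP1 replicates 2 and 3. It was extra axial for YAP1-MAML2-v2 replicates 2 and 6 and for 1 tumor of the active YAP1 (NLS-2SA-YAP1 replicate 1), and intra ventricular for YAP1-MAML2-v2 replicate 7. No normal tissue was analysed here, so the levels have no untreated background. The labels do not say that each library came from its own mouse, and p-values measure the spread between these libraries. The deposited files of YAP1-MAML2-v2 replicates 6 and 7 carry the same number, so these tumors may share a mouse, which the labels do not settle. Values without replicate 6 are given beside several results, and leaving out replicate 7 barely moved the fitted differences, since its region has a term of its own.

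AP-1 is a pair of basic leucine zipper proteins, usually 1 FOS-family and 1 JUN-family protein, that binds the sequence TGANTCA. JUN proteins can pair with each other, while FOS proteins need a JUN partner. FOS, FOSB, JUN, JUNB and ATF3 are immediate early genes, whose transcription starts within minutes of a growth signal or stress and soon stops, whereas JUND is made more steadily. At enhancers AP-1 often sits beside TEAD, the DNA-binding partner of YAP1, and ATF3 can pair with JUN proteins or act as a repressor.

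Levels are given as CPM, the usual counts scale that sets a gene's value against the TMM-scaled total of its library. The deposited values were whole numbers totalling 28001143 to 44544314 per library. They were treated as estimated counts, because values of 1 were 4.54 to 6.82 times as frequent as values of 2, so the totals are not depth and no counting intervals are given. YAP1 stood at 122 to 174 CPM in the YAP1-MAML2-v2 tumors and at 421 to 592 CPM in the NLS-2SA-YAP1 tumors. MAML2 stood at 30.6 to 128 CPM in the former and 9.79 to 20.8 CPM in the latter, so the libraries separate by label on both genes. The labels give the cell type as DF1, which mouse gene values cannot check. Markers of arachnoid cells and meningeal fibroblasts, all 11 in the files, summed to 4569 to 28333 CPM. SLC47A1 was listed at 0 in 3 libraries, PTGDS in 1 and CLDN11 in 1.

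The start regions of 3 members are shown. FOS led its family in 8 tumors and JUN in 3, and JUNB was the member whose source regions did not overlap. JUND, which led the JUN family in 5 tumors, is not shown. RefSeq windows (GRCm38.p6, the mm10 assembly) covering the 250 bases before the start matched 7 of the 8 members. RefSeq and GENCODE starts differ for some of them: the JUND window ends upstream of the GENCODE gene, and the FOSL2 and ATF3 windows lie inside theirs. Capitals mark TGACG, the core of a cAMP response element, in FOS (chr12:85473640-85473889, plus strand) and JUNB (chr8:84978749-84978998, minus strand), and TGACNTCA, the form JUN is known for, in JUN (chr4:95052223-95052472, minus strand). Each is written 5′ to 3′ along its gene.
FOS: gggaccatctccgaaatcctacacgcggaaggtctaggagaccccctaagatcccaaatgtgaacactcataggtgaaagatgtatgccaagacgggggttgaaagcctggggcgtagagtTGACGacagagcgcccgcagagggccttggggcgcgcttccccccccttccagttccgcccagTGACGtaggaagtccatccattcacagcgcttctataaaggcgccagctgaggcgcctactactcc
JUN: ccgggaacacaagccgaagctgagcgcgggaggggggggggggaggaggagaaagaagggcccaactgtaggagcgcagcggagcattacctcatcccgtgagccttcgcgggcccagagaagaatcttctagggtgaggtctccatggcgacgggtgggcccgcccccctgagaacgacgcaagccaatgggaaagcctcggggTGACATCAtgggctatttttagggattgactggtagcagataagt
JUNB: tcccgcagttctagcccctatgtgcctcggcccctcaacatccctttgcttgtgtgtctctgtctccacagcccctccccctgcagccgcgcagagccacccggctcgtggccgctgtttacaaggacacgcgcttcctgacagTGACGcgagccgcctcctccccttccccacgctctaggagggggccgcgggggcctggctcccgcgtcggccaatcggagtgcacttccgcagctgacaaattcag
FOS held TGACG at 61 to 66 and again at 124 to 129 bases before the start, and JUNB held it at 101 to 106. In JUN the match read TGACATCA, 37 to 45 bases before the start. On either strand TGACG was found in 4 of the 7 windows (FOS, FOSB, JUNB and ATF3) and in 17.8% of all 32851 windows of that length. TGACNTCA was found in JUN alone and in 7.49% of windows. The AP-1 site TGANTCA (6.75% of windows), the CArG box bound by SRF (1.47%) and the TEAD motif GGAATG (12.6%) were found in none of the 7, which says only that these letters are not in these windows. The letters of TGACNTCA and TGACG can overlap, and both were searched only after the full cAMP response element gave no match in any member.

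**Figure D1:**
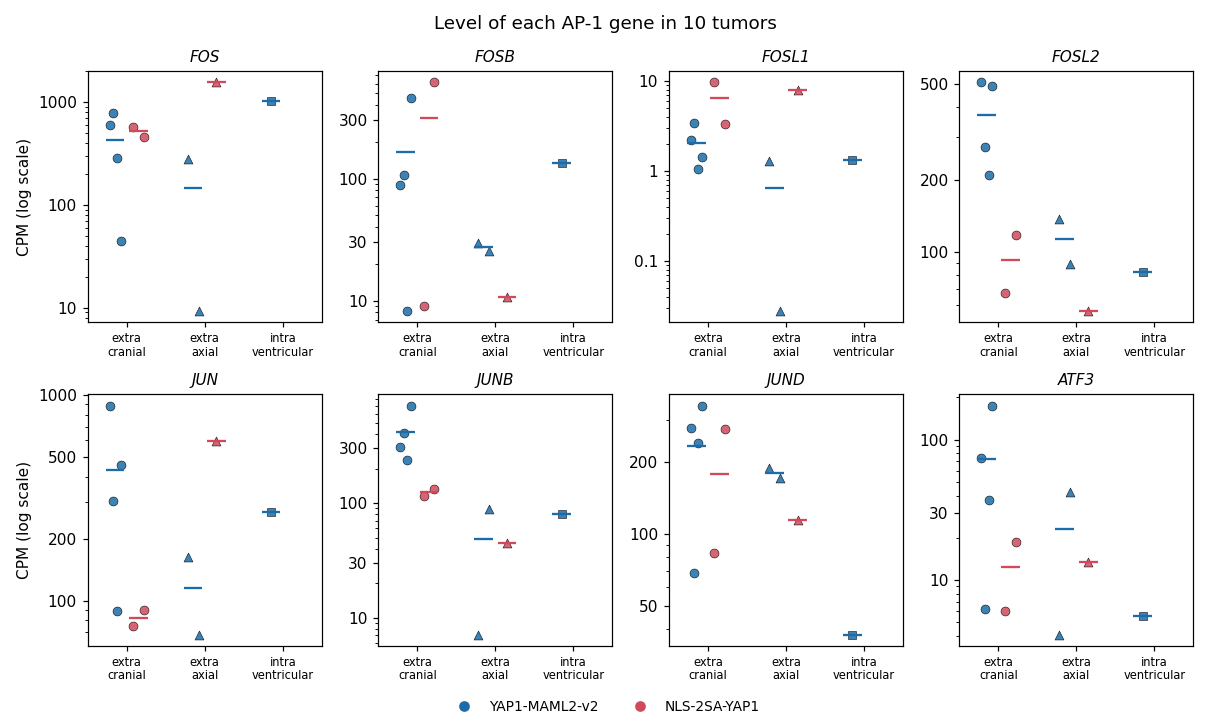
Level of each gene (CPM, log axis, one scale per panel) by source region. Points are libraries, blue for YAP1-MAML2-v2 and red for NLS-2SA-YAP1, and bars are the mean of the libraries in each column. FOSL2 and JUNB are highest in the 4 blue extra cranial libraries, FOS spans 9.33 to 1561 CPM, and the lowest FOSL1 point is a deposited value of 1.

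Among the FOS family, FOS (chr12:85473890-85477273, mm10), the founding member, had the widest range of the 7 members with no value of 0 or 1. Among extra cranial tumors, YAP1-MAML2-v2 replicates 1, 3, 4 and 5 held 604, 782, 288 and 44.3 CPM, while NLS-2SA-YAP1 replicates 2 and 3 held 576 and 462 CPM. Extra axial YAP1-MAML2-v2 replicates 2 and 6 held 280 and 9.33 CPM, extra axial NLS-2SA-YAP1 replicate 1 held 1561 CPM, and the intra ventricular tumor held 1035 CPM. The highest tumor was 167.4 times the lowest, both of them extra axial. All 3 NLS-2SA-YAP1 values lay above the YAP1-MAML2-v2 median of 288 CPM, but the constructs overlapped.

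FOSB (chr7:19302696-19310051), a close relative of FOS with a short form found in chronically stimulated neurons, split the extra cranial tumors. YAP1-MAML2-v2 replicates 1, 3, 4 and 5 held 88.2, 106, 8.25 and 453 CPM there, while NLS-2SA-YAP1 replicates 2 and 3 held 9.05 and 615 CPM. The extra axial libraries held 29.8 and 25.6 CPM with YAP1-MAML2-v2 and 10.8 CPM with NLS-2SA-YAP1, and the intra ventricular tumor held 135 CPM. The extra axial values were thus close together and inside the extra cranial range, which spanned 74.5-fold.

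FOSL1 (chr19:5447547-5455946), also called FRA1 and linked to migration and invasion, had the lowest median level per length of the members. The YAP1-MAML2-v2 libraries held 2.2, 3.44, 1.05 and 1.45 CPM extra cranially, 1.28 CPM and a deposited value of 1 (replicate 6) extra axially, and 1.33 CPM in the ventricle. The NLS-2SA-YAP1 libraries held 9.7 and 3.32 CPM extra cranially and 7.97 CPM extra axially. Only YAP1-MAML2-v2 replicate 3, at 3.44 CPM, exceeded the lowest NLS-2SA-YAP1 value. Its locus overlaps CCDC85B on the opposite strand over 2767 bases, and no source used here gives the strand setting of the counting, so the origin of its reads is uncertain.

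FOSL2 (chr5:32135801-32157842), or FRA2, a regulator of matrix genes in fibroblasts and bone, ran the other way. Extra cranial YAP1-MAML2-v2 replicates 1, 3, 4 and 5 held 510, 273, 209 and 492 CPM, and extra cranial NLS-2SA-YAP1 replicates 2 and 3 held 67.4 and 118 CPM. In the other regions, YAP1-MAML2-v2 replicates 2, 6 and 7 held 137, 89.3 and 82.3 CPM, and NLS-2SA-YAP1 replicate 1 held 56.7 CPM. The lowest of the 4 extra cranial YAP1-MAML2-v2 tumors was therefore above the highest of the other 6.

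In the JUN family, JUN (chr4:95049034-95052222), the partner shared by most AP-1 pairs, held 883, 305, 89.0 and 456 CPM in extra cranial YAP1-MAML2-v2 replicates 1, 3, 4 and 5. It held 74.8 and 89.9 CPM in extra cranial NLS-2SA-YAP1 replicates 2 and 3, but 598 CPM in the extra axial NLS-2SA-YAP1 tumor. Extra axial YAP1-MAML2-v2 replicates 2 and 6 held 163 and 68.3 CPM, and the intra ventricular tumor held 268 CPM. Neither the constructs nor the regions separated.

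JUNB (chr8:84974484-84978718), known as a weaker activator that can restrain JUN and cell division, had the clearest order by region. Extra cranial YAP1-MAML2-v2 replicates 1, 3, 4 and 5 held 307, 408, 239 and 703 CPM, and extra cranial NLS-2SA-YAP1 replicates 2 and 3 held 115 and 133 CPM. Extra axial YAP1-MAML2-v2 replicates 2 and 6 held 7.13 and 89.1 CPM, extra axial NLS-2SA-YAP1 replicate 1 held 45.2 CPM, and the intra ventricular tumor held 80.3 CPM. All 6 extra cranial libraries were above the other 4. PRDX2 overlaps JUNB on the opposite strand over 351 bases.

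JUND (chr8:70698949-70700616), the steadily made JUN protein, varied 9.1-fold. The extra cranial libraries held 279, 69.1, 241 and 344 CPM with YAP1-MAML2-v2 and 83.2 and 275 CPM with NLS-2SA-YAP1. The extra axial libraries held 190, 171 and 115 CPM, all inside that range, and the intra ventricular tumor was lowest at 38.0 CPM.

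ATF3 (chr1:191170296-191218039), a factor of the integrated stress response, held 73.7, 6.18, 36.9 and 174 CPM in extra cranial YAP1-MAML2-v2 replicates 1, 3, 4 and 5. NLS-2SA-YAP1 replicates 1, 2 and 3 held 13.5, 6.01 and 18.6 CPM, all below the YAP1-MAML2-v2 median of 36.9 CPM. Extra axial YAP1-MAML2-v2 replicates 2 and 6 held 4.09 and 42.3 CPM and the intra ventricular tumor 5.56 CPM, so the constructs overlapped, as did the regions.

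Divided by the length of all annotated exons, the median level over the 10 tumors was 221 CPM per kb for FOS, 108 for JUND, 67.5 for JUN and 53.7 for JUNB. The other members followed at 13.2 CPM per kb for FOSL2, 9.45 for FOSB, 7.47 for ATF3 and 0.898 for FOSL1. In each pair of neighbours in this order the gap between medians was smaller than the larger SD over tumors. JUNB was above FOSL2 in 9 of 10 tumors and ATF3 above FOSL1 in 9, while JUN was above JUNB in only 4. With the longest transcript as the length, JUN and JUNB changed places and the other 6 members kept theirs.

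Within the FOS family, FOS made up 13.2% to 98.3% of the summed CPM per kb (median 84.9%) and led in 8 of 10 tumors. FOSB led in YAP1-MAML2-v2 replicate 5 at 50.8%, where FOS was at 13.2% and FOSL2 at 35.6%. FOSL2 led in YAP1-MAML2-v2 replicate 6 at 53.3%, the tumor with the lowest family sum, 17.3 CPM per kb against 139 to 675 in the others. FOSL1 never exceeded 1.9%.

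The JUN family had no constant leader. JUND led in 5 tumors, JUN in 3 (NLS-2SA-YAP1 replicate 1 and YAP1-MAML2-v2 replicates 1 and 7) and JUNB in YAP1-MAML2-v2 replicates 3 and 5. In NLS-2SA-YAP1 replicate 2 JUND and JUNB were level at 40.5% and 40.4%, and by longest transcript JUNB led there at 46.3%. JUNB ranged from 1.8% in the extra axial YAP1-MAML2-v2 replicate 2 to 56.4% in the extra cranial replicate 3.

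**Figure D2:**
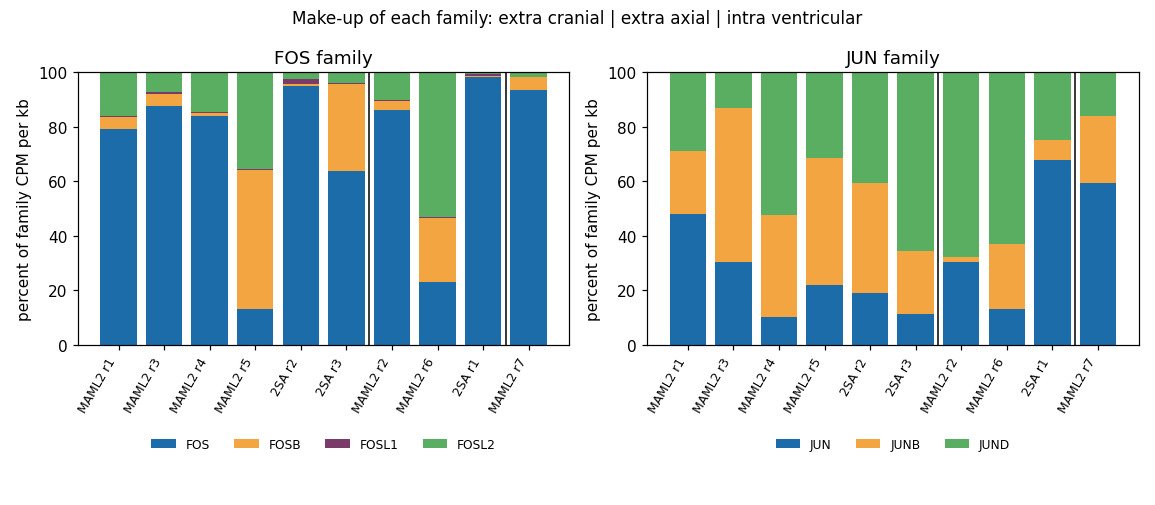
Share of each gene in its family (percent of summed CPM per kb of exon), one bar per library. MAML2 r1 stands for YAP1-MAML2-v2 replicate 1 and 2SA r1 for NLS-2SA-YAP1 replicate 1. Vertical lines separate extra cranial, extra axial and intra ventricular libraries, and FOS fills most of the bar in 8 tumors while the JUN family changes leader.

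No single tumor was high for all members. YAP1-MAML2-v2 replicate 5 had the highest JUNB, JUND and ATF3, yet its FOS was the 9th of 10. YAP1-MAML2-v2 replicate 6 had the lowest FOS, FOSL1 and JUN, with ATF3 among the top 3. FOS was highest in NLS-2SA-YAP1 replicate 1, which had the lowest FOSL2. Over the 28 pairs of members, 19 had a positive Pearson r of log2 CPM across the 10 tumors, with a median of 0.24. None had a permutation p under 0.05 after Benjamini-Hochberg adjustment over the 28 pairs.

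FOS and FOSL1 had the highest Pearson r, 0.82 (two-sided permutation p = 0.00576, adjusted 0.161), with Spearman rho = 0.64 (permutation p = 0.0548, adjusted 0.341). Without YAP1-MAML2-v2 replicates 5 and 6, the tumors farthest from the FOS median, r was 0.53, so much of it rests on them, and 1 of those values is the FOSL1 listed at 1. JUND and ATF3 had r = 0.74 (permutation p = 0.0149, adjusted 0.209) and rho = 0.73 (permutation p = 0.0205, adjusted 0.287), with r = 0.7 without YAP1-MAML2-v2 replicates 3 and 7. With construct and region terms removed over 9 tumors, r was 0.85 for FOS and FOSL1 and 0.7 for JUND and ATF3. Those 9 tumors still include YAP1-MAML2-v2 replicates 5 and 6. FOSL2 and JUN also had r = 0.85 with these terms removed. With the terms kept their r was 0.47, and -0.1 without YAP1-MAML2-v2 replicates 1 and 5. FOS and FOSB, immediate early genes of the same family, had r = -0.09 (permutation p = 0.805, adjusted 0.908) and rho = 0.01 (permutation p = 1.0, adjusted 1.0). FOSL2 and JUNB had the highest rho, 0.75 (permutation p = 0.0172, adjusted 0.287), with r = 0.63 (permutation p = 0.0459, adjusted 0.344). The same 4 tumors lie above the other 6 on both genes. With construct and region terms removed r was 0.16, and without YAP1-MAML2-v2 replicates 1 and 5 it was 0.4.

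**Figure D3:**
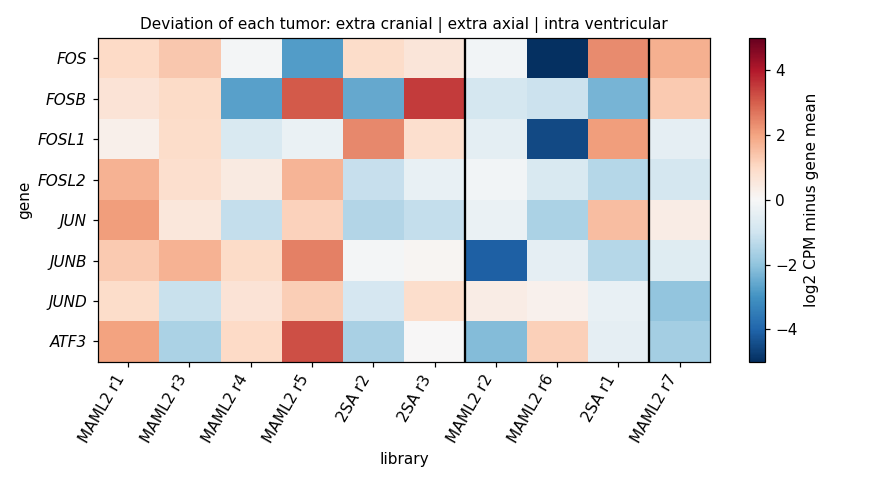
Each gene's log2 CPM in each library minus that gene's mean over the 10 libraries (color scale from -5 to 5, red above and blue below the mean; library names as in the plot of family shares). The columns are mixed: MAML2 r5 is red for FOSB, JUNB and ATF3 and blue for FOS, and MAML2 r6 is darkest blue for FOS and FOSL1.

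As a description of these 10 tumors, the genes with the most similar log2 CPM pattern were sought among 11442 others. FOS was nearest to SLC1A1 (r = 0.97), C16orf45 (r = 0.96) and NEK11 (r = 0.96), but all 3 of these have a deposited value of 0 or 1 in YAP1-MAML2-v2 replicate 6, the tumor with the lowest FOS. FOSL1 was nearest to LIF (r = 0.95), a cytokine gene, and FOSB to DAPK1 (r = 0.89). FOSL2 was nearest to ALDH1L2 (r = 0.97), ERO1L (r = 0.94) and IARS (r = 0.92), and ATF3 to ANXA4 (r = 0.98). JUN was nearest to AOX1 (r = 0.9), JUNB to LRRC25 (r = 0.92), and JUND to EIF3K and RFX1 (both r = 0.96). They were picked as the highest of many coefficients over 10 points and carry no test.

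The first comparison asked whether the members differ between the 2 YAP1 constructs. FOSL2 was lower in the NLS-2SA-YAP1 tumors, with a mean of 80.7 ± 32.8 CPM (SD, n = 3) compared with 256 ± 180 CPM (SD, n = 7). FOSL1 was higher, at 7.0 ± 3.3 CPM compared with 1.54 ± 1.06 CPM. Neither passed the main test, edgeR's quasi-likelihood test with construct and region as terms and p adjusted over all genes by Benjamini-Hochberg with a threshold of 0.05. That test called 0 of the 8 members, against 2 of 13707 genes (0.0146%). At an unadjusted edgeR p under 0.05 there were 2 members, FOSL1 (higher, as 5.44% of all genes) and FOSL2 (lower, as 7.61%), against 13.1% of all genes in either direction. DESeq2 called FOSL2 among 5.0% of genes, limma-voom with sample quality weights called FOSL2 among 0.671%, and limma on log2 CPM called no member among 0.0438%. The constructs overlapped for all 8 members, against 6.73% of genes whose groups did not overlap.

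For FOSL2 the log2 fold change, NLS-2SA-YAP1 minus YAP1-MAML2-v2, was -1.64 (SE 0.45, edgeR adjusted p = 0.225). Its adjusted p was 0.00724 in DESeq2 and 0.0499 in limma-voom, within a range of 0.00724 to 0.62 over 22 alternatives, and the log2 fold change kept its sign in all of them (-2.02 to -1.17). All 3 NLS-2SA-YAP1 values lay below the YAP1-MAML2-v2 median, and the exact two-sided permutation p was 0.0667 (adjusted over 16 tests, 0.356). Within the extra cranial tumors alone, 2 against 4, it was -2.02 (edgeR adjusted p = 0.359), and with YAP1-MAML2-v2 replicate 6 left out it was -1.81.

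FOSL1 had a log2 fold change of 2.39 (SE 1.04, edgeR adjusted p = 0.37). The exact two-sided permutation p was 0.0333, where 0.0167 is the smallest that 3 against 7 can give, and 0.267 after adjustment over 16 tests. All 3 NLS-2SA-YAP1 values lay above the YAP1-MAML2-v2 median. Without NLS-2SA-YAP1 replicate 1 it was 1.66 (edgeR adjusted p = 0.676), and without YAP1-MAML2-v2 replicate 6, where FOSL1 is listed at 1, it was 1.93 (edgeR adjusted p = 0.41).

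The remaining members did not pass either, and the constructs overlapped in each. FOS had a log2 fold change of 1.52 (SE 1.19, edgeR adjusted p = 0.635) and ATF3 one of -1.89 (SE 1.11, edgeR adjusted p = 0.502). The FOS value rests on NLS-2SA-YAP1 replicate 1, without which it was 0.26 (edgeR adjusted p = 0.964), and without YAP1-MAML2-v2 replicate 6 it was 0.86. ATF3 was -0.32 (edgeR adjusted p = 0.974) with the mean log2 CPM of the skeletal muscle markers as a term. It was -1.33 and -1.34 without YAP1-MAML2-v2 replicate 5 and NLS-2SA-YAP1 replicate 2. JUNB had -1.13 (SE 0.74), JUND -0.47 (SE 0.52), JUN -0.41 (SE 1.27) and FOSB 0.32 (SE 1.3), with edgeR adjusted p from 0.554 to 0.954. The FOSB value rests on NLS-2SA-YAP1 replicate 3, without which it was -2.59. JUN was -2.41 without NLS-2SA-YAP1 replicate 1, and its sign turned to 0.72 and 0.65 without NLS-2SA-YAP1 replicates 2 and 3. In all, 3 members were higher and 5 lower, with a median of -0.44 against -0.03 over all genes, of which 51.6% were lower.

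**Figure D4:**
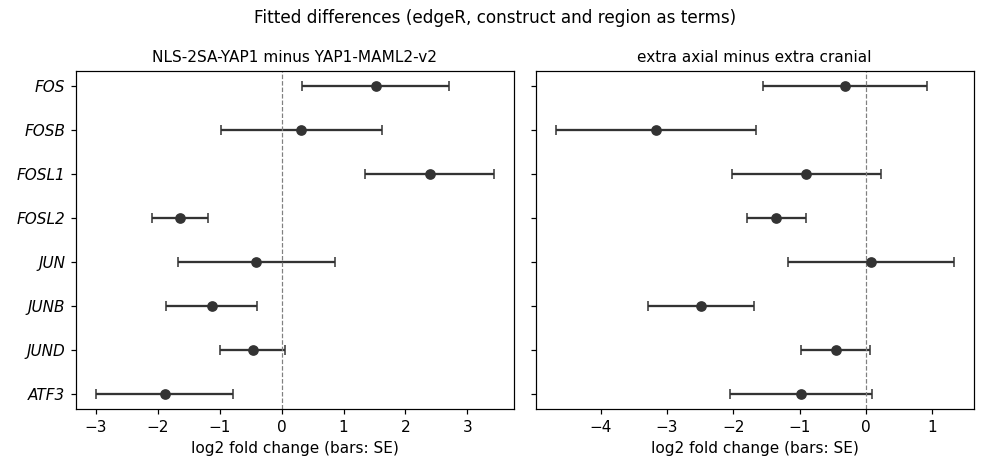
Fitted log2 fold change of each gene between constructs (left) and between regions (right), with bars of 1 SE from the edgeR fit. On the left the bars of FOSL2, ATF3 and JUNB lie below 0 and those of FOSL1 and FOS above it. On the right the bars of JUNB, FOSB and FOSL2 lie below 0, and no gene passes the adjusted threshold.

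The second comparison asked whether the members differ between source regions. JUNB was lower in the extra axial tumors, with a mean of 47.2 ± 41 CPM (SD, n = 3) compared with 317 ± 218 CPM (SD, n = 6) in the extra cranial tumors. So were FOSL2, at 94.4 ± 40.5 compared with 278 ± 187 CPM, and FOSB, at 22.1 ± 9.98 compared with 213 ± 257 CPM. None passed the test: edgeR called 0 of 8 members and 0 of 13707 genes (0.0%). At an unadjusted edgeR p under 0.05 there were 2 members, JUNB and FOSL2, against 3.01% of all genes. Both were lower, as were 2.0% of all genes at that p. DESeq2 called no member among 0.226% of genes, and both limma fits called no gene (0.0%).

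The log2 fold change of JUNB, extra axial minus extra cranial, was -2.49 (SE 0.8, edgeR adjusted p = 1). JUNB was the 1 member of 8 whose regions did not overlap, which held for 0.89% of all genes and in that direction for 0.503%. Its exact two-sided permutation p of 0.0238 is the smallest that 3 against 6 can give, and was 0.267 after adjustment over 16 tests. Leaving out each tumor in turn gave -3.15 to -1.85, the smallest without YAP1-MAML2-v2 replicate 2, and -3.06 without replicate 6. Within YAP1-MAML2-v2 alone, 2 against 4 tumors, it was -3.12 (edgeR adjusted p = 1).

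FOSL2 had -1.35 (SE 0.44, edgeR adjusted p = 1) and its regions overlapped, since the extra cranial NLS-2SA-YAP1 tumors lay within the extra axial range. FOSB had -3.17 (SE 1.51, edgeR adjusted p = 1), with overlap at the low end. Leaving out the tumors with the highest FOSB moved it to -1.83 (NLS-2SA-YAP1 replicate 3) and -2.2 (YAP1-MAML2-v2 replicate 5). ATF3 (-0.98, SE 1.07), FOSL1 (-0.9, SE 1.12), JUND (-0.46, SE 0.52), FOS (-0.32, SE 1.24) and JUN (0.07, SE 1.25) differed by less than 1 SE. FOS turned to 0.59 without YAP1-MAML2-v2 replicate 6, and JUN to -1.93 without NLS-2SA-YAP1 replicate 1. By sign, 7 members were lower and 1 higher, with a median of -0.94 against -0.01 over all genes, of which 50.6% were lower.

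FOSL2 and JUNB shared a pattern that was noticed after their values were seen. In both, the 4 extra cranial YAP1-MAML2-v2 tumors lay above all other 6, at 209 to 510 against 56.7 to 137 CPM for FOSL2 and 239 to 703 against 7.13 to 133 CPM for JUNB. That ordering held for 2 of 8 members and 67 of 13707 genes (0.489%), and carries no test.

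**Figure D5:**
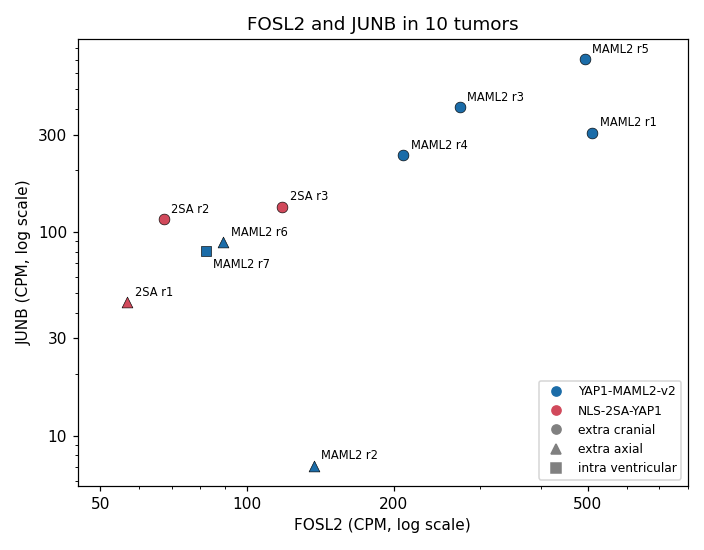
FOSL2 against JUNB (CPM, log axes), one point per library, colored by construct and shaped by region, with library names as in the plot of family shares. The 4 extra cranial YAP1-MAML2-v2 libraries sit at the upper right, apart from the other 6.

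Values for other cells and states also varied between these tumors, with sums that overlapped between extra cranial and extra axial tumors. Macrophage and microglia markers, 12 of 13 in the files and none at 0, summed to 787 to 1730 CPM in extra cranial, 603 to 960 CPM in extra axial and 2888 CPM in the intra ventricular tumor, where JUNB was 80.3 CPM. Skeletal muscle markers, all 12 in the files, summed to 110 CPM in YAP1-MAML2-v2 replicate 3. They summed to 135 CPM in NLS-2SA-YAP1 replicate 2 and to 471 CPM in replicate 3. Elsewhere the sum was at most 11.8 CPM, with between 1 and 4 of the 12, most often MYH4 or MYL1, listed at 0. The muscle term in the fits was not this sum but the mean log2 CPM of the 9 muscle markers that passed the filter. With it, the FOSL2 difference between constructs was -1.17 (edgeR adjusted p = 0.487). Of 12 hypoxia genes, 12 were lower in NLS-2SA-YAP1 (median log2 fold change -1.57). Of these, 5 had an unadjusted edgeR p under 0.05, where 7.61% of all genes were lower at that p. In extra axial tumors 10 of the 12 were lower (median -1.27), 3 of them at that p, against 2.0% of all genes. In neither comparison did edgeR call any of the hypoxia genes. They summed to 2299 to 4494 CPM in the 4 extra cranial YAP1-MAML2-v2 tumors and to 897 to 3615 CPM in the other 6. Cell cycle genes summed to 209 to 790 CPM in extra axial and 52.9 to 303 CPM in extra cranial tumors. The part of hypoxia, macrophage and cell cycle genes in the member differences was not tested. In bulk tumors fewer cells of a type and less RNA per cell cannot be told apart.

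The third comparison asked whether the difference between regions depended on the construct. JUN had an interaction of 4.78 on the log2 scale (SE 1.35, edgeR adjusted p = 0.658). It was 598 CPM in the 1 extra axial NLS-2SA-YAP1 tumor against 74.8 and 89.9 CPM in the extra cranial ones, while extra axial YAP1-MAML2-v2 tumors at 68.3 and 163 CPM lay below 3 of 4 extra cranial ones. That tumor is the only library of its kind, so the value has no replicate. FOS had 3.17 (SE 2.11, edgeR adjusted p = 0.786), with 1561 CPM in the same tumor. The order of the members depended on single tumors: without YAP1-MAML2-v2 replicate 2, FOS was 7.2, FOSL1 6.39 and JUN 5.62. Without YAP1-MAML2-v2 replicate 6, JUNB was 4.46, ATF3 4.34 and JUN 4.32. Of the 8 members edgeR called 0, against 1 of 13487 genes (0.00741%), and 1 member (JUN) had an unadjusted p under 0.05, against 7.14% of genes. DESeq2 called JUN (adjusted p = 0.0244, range over 15 alternatives 0.0244 to 0.999) among 1.51% of genes, limma-voom called no gene (0.0%), and limma on log2 CPM called no member among 0.0297%.

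The pathway around the members was read from lists of genes chosen with earlier results of these data known, of which edgeR called no gene in either comparison. Of 26 tested partners from other basic leucine zipper families, 17 were lower in NLS-2SA-YAP1 (median log2 fold change -0.44) and 21 lower in extra axial tumors (median -0.34). The extreme of the former was ATF2, a partner of JUN, with -2.04 (SE 0.41, edgeR adjusted p = 0.148), at 22.0 to 57.3 CPM in NLS-2SA-YAP1 against 103 to 175 CPM. MAFF, a small MAF protein, had 2.05 (SE 0.91, edgeR adjusted p = 0.381). Among 20 genes of the MAPK and SRF route that switches on FOS and JUN, 12 were lower between constructs and 9 between regions (median 0.09). MAP2K1, a kinase upstream of ERK, had -1.31 between constructs (SE 0.41, edgeR adjusted p = 0.262), while MAP2K3, upstream of p38, had 0.92 (SE 0.28, edgeR adjusted p = 0.243).

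Of 14 MAPK phosphatases and feedback inhibitors, 13 were lower in NLS-2SA-YAP1 (median -0.51), 2 of them with an unadjusted edgeR p under 0.05, where 7.61% of all genes were lower at that p. SPRY2, an inhibitor of receptor tyrosine kinase signaling, had -2.84 (SE 0.7, edgeR adjusted p = 0.188). Of 15 tested EGR, IER and related immediate early genes, 10 were lower between constructs (median -0.87) and 9 between regions (median -0.63). At an unadjusted edgeR p under 0.05, 4 were lower and 2 higher between constructs, against 7.61% and 5.44% of all genes. Between regions 4 were lower and 0 higher at that p, against 2.0% and 1.01% of all genes. IER2 had -2.2 (SE 0.48, edgeR adjusted p = 0.161) and EGR3 3.57 (SE 1.05, edgeR adjusted p = 0.241) between constructs, so immediate early genes, like the members, had both signs.

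Of 21 tested AP-1 target genes, 18 were lower in extra axial tumors (median -1.02), 4 with an unadjusted edgeR p under 0.05, where 2.0% of all genes were lower at that p. PLAUR, the urokinase receptor, was 5.35 to 6.2 CPM in extra axial and 9.68 to 40.1 CPM in extra cranial tumors, without overlap, and had -1.78 (SE 0.53, edgeR adjusted p = 1). FN1, which encodes fibronectin, had -1.72 (SE 0.75, edgeR adjusted p = 1). Between constructs 12 of the 21 were lower (median -0.63), while CCND1, cyclin D1, was 1588 to 2241 CPM in NLS-2SA-YAP1 against 260 to 868 CPM (log2 fold change 1.87, SE 0.44, edgeR adjusted p = 0.175).

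Of 17 genes listed as targets of YAP1, TEAD and AP-1, 14 were lower in extra axial tumors (median -0.41) and 8 lower in NLS-2SA-YAP1 (median 0.19). Binding was not measured here. CTGF, a matrix-associated YAP1 target, was 28.7 to 835 CPM in extra axial and 667 to 5090 CPM in extra cranial tumors, with a difference of -2.77 (SE 1.06, edgeR adjusted p = 1). AJUBA, a LIM-domain regulator of the Hippo pathway, was 59.3 to 72.8 CPM in NLS-2SA-YAP1 against 8.2 to 33.6 CPM (log2 fold change 1.95, SE 0.44, edgeR adjusted p = 0.161). Of 6 TEAD factors and coactivators, the constructs differed upward in 4 and downward in 2 (median 0.78). The list includes YAP1 (log2 fold change 1.75), which both constructs carry and which separated the labels above. The count and the median are therefore not independent of the labels. TEAD4, a DNA-binding partner of YAP1, was 12.2 to 20.2 against 2.84 to 6.89 CPM (log2 fold change 1.83, SE 0.49, edgeR adjusted p = 0.224). TEAD2, of the same family, was 8.69 to 11.5 against 10.3 to 55.3 CPM, with a difference of -1.7 (SE 0.38, edgeR adjusted p = 0.161).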

How the data were processed

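RNA-seq libraries from 10 mouse tumors were used, grouped by the construct and source region in the labels. Reads were counted with HTSeq against mm10, per the submitters' processing notes, and no source used here gives the aligner or later steps. As deposited, the values are whole numbers and were handled as estimated counts, since 0 and 1 are in excess over 2, although the tests had been planned for counts. Of the symbols, 15475 (91.6%) match GENCODE M21, which gave coordinates and exon lengths.

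Genes were filtered with filterByExpr by construct (minimum count 10; 13707 kept) and scaled by TMM, and edgeR 4.0.16 (R 4.3.3) was fitted with terms for construct and region to the 10 libraries. The single intra ventricular tumor has a region term to itself and so barely moves the fitted differences, but it enters the exact tests, overlaps and means between constructs. The interaction used 9 libraries. CPM came from TMM-scaled totals, with a prior count of 2 on the log2 scale. Exact permutation tests of log2 CPM used scipy 1.17.1, adjusted over 16 tests, and correlations used 100000 permutations. DESeq2 1.42.0, limma 3.58.1, other scalings, filters, covariates and libraries left out were alternatives. The code of the edgeR step was also run on simulated data. Replicate numbers shared by the constructs were not treated as pairing the libraries.

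All 8 members are named. Of each of the 21 lists, up to 4 genes of smallest p could be named if their mean log2 CPM reached 1, and likeness took the 3 genes of highest r. Some genes that meet these rules are not reported here. The members and lists were chosen with earlier results of these data known. Promoter windows came from a RefSeq table, and windows inside annotated gene bodies are not printed.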

Additional observations from a re-analysis of the deposited data

Results flagged for a closer look

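In 3 of 16 groups tested (8 members in the YAP1-MAML2-v2 and in the extra cranial libraries), 1 tumor stood far from the others, by a gap to its neighbour that was large against the range of the group (Dixon's 95% criterion). The criterion's rate of about 1 in 20 holds for independent, normally distributed groups. These CPM values have long upper ends and the groups of a gene share tumors, so 3 of 16 cannot be set against that rate. FOSB was 453 CPM in YAP1-MAML2-v2 replicate 5, against 135 CPM in the next YAP1-MAML2-v2 tumor (gap over range 0.72, limit 0.568). ATF3 was 174 CPM in the same tumor, against 73.7 CPM in the next (0.59, limit 0.568). FOSL1 was 9.7 CPM in NLS-2SA-YAP1 replicate 2, against 3.44 CPM in the next extra cranial tumor (0.72, limit 0.625).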

How the results depend on the processing

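Of the member differences under the alternatives (175 between constructs, 166 between regions and 119 in the interaction), 25 changed sign and 3 passed the threshold where the reported value did not; the cause was not tested. Between constructs FOSB turned to -0.7 with limma-voom, -0.48 with limma on log2 CPM and -0.61 with the mean log2 CPM of the muscle markers as covariate. It was -0.05 and -2.59 without YAP1-MAML2-v2 replicate 4 and NLS-2SA-YAP1 replicate 3. JUN turned to 0.67 and JUND to 0.02 with the muscle covariate, and JUN to 0.72 and 0.65 without NLS-2SA-YAP1 replicates 2 and 3. Over all libraries left out in turn, FOSB ranged from -2.59 to 1.3 and JUN from -2.41 to 0.72. Between regions JUN turned to -0.61 with limma-voom, -0.12 with limma on log2 CPM, -0.19 without the construct term (FOS to 0.43), -1.95 within YAP1-MAML2-v2 and -1.3 with the muscle covariate. Without YAP1-MAML2-v2 replicate 4 and NLS-2SA-YAP1 replicates 1, 2 and 3, JUN was -0.04, -1.93, -0.85 and -0.8, and FOS was 0.59 without YAP1-MAML2-v2 replicate 6. There the ranges were -1.93 to 1.28 for JUN and -1.57 to 0.59 for FOS. In the interaction JUND turned to 0.03 with limma-voom and to 0.06 and 0.84 without YAP1-MAML2-v2 replicate 3 and NLS-2SA-YAP1 replicate 3, and FOSB to 2.82 without the latter (ranges -0.83 to 0.84 and -3.55 to 2.82). Those that passed were FOSL2 between constructs (-1.67 in DESeq2, -2.01 in limma-voom) and JUN in the interaction (4.79 in DESeq2).

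Genes called over the whole table numbered 2 between constructs, 0 between regions and 1 in the interaction with edgeR, and 685, 31 and 204 with DESeq2. Limma-voom called 92, 0 and 0, and limma on log2 CPM 6, 0 and 4. Between constructs, 4 were called with no filter, 4 within the extra cranial region and 0 with the muscle covariate. Leaving out each library in turn gave 0 to 2 between constructs, 0 to 1 between regions and 0 to 3 in the interaction. With the genes left out that are at 0 or 1 in 1 library or more but exceed 100 elsewhere, an alternative added after seeing the data that also drops FOSL1, 1 gene was called between constructs and 0 in the interaction. Members with an exact p under 0.05 numbered 1 in either comparison, and 0 to 2 (constructs) and 0 to 1 (regions) with a library left out, the 0 arising where the smaller group lost a library and the test cannot reach 0.05. Libraries with the same replicate number had deviations correlated at 0.17, 0.34 and -0.07, against -0.24 to 0.28 for those with different numbers. These values do not settle whether the numbers mark pairs, and the libraries were not treated as pairs. A fit with a replicate block on replicates 1 to 3, which has no region term, called 2 genes between constructs. There FOSB was -1.01, FOS 0.57, FOSL1 1.59 and ATF3 0.0. Depth is unknown, so low values such as those of FOSL1 have no counting error.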
